A study of Mus musculus with 20 samples.

Results

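The difference between C57BL/6J and FVB/N mice in the sperm promoter response to prenatal DEHP was described for 14717 of the 22480 promoters of the deposited table, those whose 4 group means of normalized reads averaged at least 3. The remaining 7763 promoters had lower averages. For each promoter the log2 ratio of control over DEHP, with 1 added to both means, was taken in each strain, and the value of FVB/N was subtracted from that of C57BL/6J. The result is called the interaction here. It is above 0 where the control-to-DEHP ratio was higher in C57BL/6J, and below 0 where it was higher in FVB/N. A shift between control and DEHP libraries that was equal in both strains cancels in it. Promoters with an average of exactly 3 were included, such as 1200014J11Rik at -0.26, 2810002D19Rik at 0.39 and 4930467K11Rik at -0.28. Just outside, at an average of 2.975, lay 1110054M08Rik at -1.05, 2410002F23Rik at -0.05 and 4930556N09Rik at 0.91.

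Sperm was taken from the epididymis and vas deferens of F1 males at 8 weeks of age. There were 4 groups of 5 libraries. Pregnant C57BL/6J or FVB/N females had received by gavage either DEHP, a phthalate plasticizer, at 300 mg/kg/day in corn oil or corn oil alone from gestation day 9 to 19. DEHP and control libraries went to the sequencing service as separate submissions, so within a strain the submission and the treatment cannot be told apart. The labels do not give litters, so each p-value measures the spread between these samples, which may share a mother.

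DEHP is taken up by the dam and reaches the fetus, where its metabolites are known to act on fetal Leydig cells and on peroxisome proliferator-activated receptors. In male mouse germ cells DNA methylation is erased in the embryo and laid down again before birth, a process in which PIWI proteins and their small RNAs direct methylation to transposons. The assay, MBD-sequencing, captures DNA fragments with methylated CpG on a methyl binding domain, so reads over a promoter increase with its methylation and with its number of CpG sites. Each probe covered 2200 bp, from 2000 bp upstream to 200 bp downstream of a gene start in mm10. More reads in controls than in DEHP are thus read as hypo-methylation in DEHP, and fewer as hyper-methylation, without giving a percentage of methylation.

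Summed over the table, the deposited means came to 226268 reads in C57BL/6J controls and 153283 after DEHP, and to 141091.6 in FVB/N controls and 150346 after DEHP. They were scaled to a common sum, and all reads below are such scaled normalized reads unless stated. Only these means and SDs were analysed, so the depth behind each value is unknown. By the study's methods, DEHP libraries had on average more read pairs, and slightly longer ones, than control libraries. The deposited SD is therefore the measure of spread, and it also bounds the libraries, because none of 5 values can lie more than 1.79 SD from their mean. FVB/N controls were the most variable group, with a median SD of 0.667 of the mean over the described promoters, against 0.392 in C57BL/6J controls and 0.381 and 0.333 in the DEHP groups of C57BL/6J and FVB/N. They supplied 51.6% of the summed error variance of the interaction.

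The sequences of the promoters on which the description turns are given first, as the 250 bases before the gene start in GRCm38.p6, the assembly that mm10 carries, read 5′ to 3′ on the gene's strand with each CG, the site that can be methylated, in capitals. Tmem125 held the highest interaction of all. Sycp3, Dazl, Mov10l1 and Tdrd9 stand for the germline and piRNA promoters, and Me1, among the 10 lowest interactions, had nearly equal means in both control groups. The windows are chr4:118543727-118543976 on the minus strand for Tmem125, chr10:88459337-88459586 on the plus strand for Sycp3, chr17:50293621-50293870 on the minus strand for Dazl, chr15:88982744-88982993 on the plus strand for Mov10l1, chr12:111971309-111971558 on the plus strand for Tdrd9 and chr9:86695915-86696164 on the minus strand for Me1. Each of the 6 was found whole in the RefSeq promoter table of that assembly.
Tmem125: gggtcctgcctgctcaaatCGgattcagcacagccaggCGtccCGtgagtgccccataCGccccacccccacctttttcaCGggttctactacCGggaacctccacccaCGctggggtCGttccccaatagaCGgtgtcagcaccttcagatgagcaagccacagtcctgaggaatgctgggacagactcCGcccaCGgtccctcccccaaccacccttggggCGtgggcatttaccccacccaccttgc
Sycp3: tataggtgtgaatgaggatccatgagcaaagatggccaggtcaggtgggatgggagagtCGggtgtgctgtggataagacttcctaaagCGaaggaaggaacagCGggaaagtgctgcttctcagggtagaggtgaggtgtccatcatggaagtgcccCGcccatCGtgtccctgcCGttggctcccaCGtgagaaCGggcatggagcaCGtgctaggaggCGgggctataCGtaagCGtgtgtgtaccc
Dazl: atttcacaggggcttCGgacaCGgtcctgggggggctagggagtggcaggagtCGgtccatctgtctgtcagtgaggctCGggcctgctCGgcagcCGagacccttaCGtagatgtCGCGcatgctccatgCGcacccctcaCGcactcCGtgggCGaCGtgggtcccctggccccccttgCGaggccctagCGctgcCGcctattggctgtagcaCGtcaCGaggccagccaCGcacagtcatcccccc
Mov10l1: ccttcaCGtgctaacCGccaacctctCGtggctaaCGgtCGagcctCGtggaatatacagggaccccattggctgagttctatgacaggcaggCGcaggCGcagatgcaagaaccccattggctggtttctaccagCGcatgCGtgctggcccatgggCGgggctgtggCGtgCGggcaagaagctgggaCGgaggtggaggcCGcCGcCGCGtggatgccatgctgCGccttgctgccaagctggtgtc
Tdrd9: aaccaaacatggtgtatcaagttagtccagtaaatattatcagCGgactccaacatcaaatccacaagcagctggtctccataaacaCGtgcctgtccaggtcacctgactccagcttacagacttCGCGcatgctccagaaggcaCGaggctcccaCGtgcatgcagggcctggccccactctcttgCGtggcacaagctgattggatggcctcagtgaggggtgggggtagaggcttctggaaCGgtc
Me1: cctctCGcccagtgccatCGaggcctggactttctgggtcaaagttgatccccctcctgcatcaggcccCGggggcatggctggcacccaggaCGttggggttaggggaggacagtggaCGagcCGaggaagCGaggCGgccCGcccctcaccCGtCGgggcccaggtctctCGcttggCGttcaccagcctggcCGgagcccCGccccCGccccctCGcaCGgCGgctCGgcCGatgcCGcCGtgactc
These windows held 12 CG in Tmem125, 12 in Sycp3, 20 in Dazl, 19 in Mov10l1, 8 in Tdrd9 and 23 in Me1.

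Across the 14717 promoters the interaction was spread about as widely as its own error. Its SD was 0.52 on the log2 scale and its median was 0.07, against a median standard error (SE) of 0.57 per promoter, and values reached from -2.25 to 2.88. The interaction was 1 or more at 469 promoters and -1 or less at 428, and it was 2 or more at 2 promoters and -2 or less at 10. After moderation of the variance with limma across all promoters and Benjamini-Hochberg adjustment, 0 promoters were called at an adjusted p under 0.05, as for 0.0% of all 22480. The lowest adjusted p was 0.0815, at Tmem125. In simulated libraries 4.0% of seeded interactions of size 1 and 46.9% of size 2 were called. These sizes were set before 1 was added to the means. Interactions of such sizes can be missed. At an unadjusted p under 0.05 there were 249 described promoters above 0 (1.69%) and 235 below 0 (1.60%). Of all 22480 promoters, 1.53% passed this limit above 0 and 3.29% below 0, in all 4.82%.

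The log2 ratios of control over DEHP followed each other in the strains, with r = 0.69 over the 14717 promoters, which share libraries and scaling within each strain. C57BL/6J had a median ratio of -0.18, and FVB/N one of -0.28. Ratios of the same sign and of at least 0.5 in both strains were found at 4481 promoters, or 30.4%. Ratios of opposite sign, each of at least 0.5, were found at 95 promoters, or 0.645%. In 49 of these, reads were higher in controls in C57BL/6J and higher in DEHP in FVB/N, and in 46 the reverse held. A ratio of at least 1 in one strain beside a ratio under 0.25 in the other was found at 131 promoters for C57BL/6J and at 247 for FVB/N. Of the 131, 17 had more reads in controls and 114 more in DEHP, and of the 247 these were 60 and 187. These classes depended on the scaling: with means as deposited, opposite signs were found at 697 promoters with more control reads in C57BL/6J and at 8 with the reverse.

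**Figure D1:**
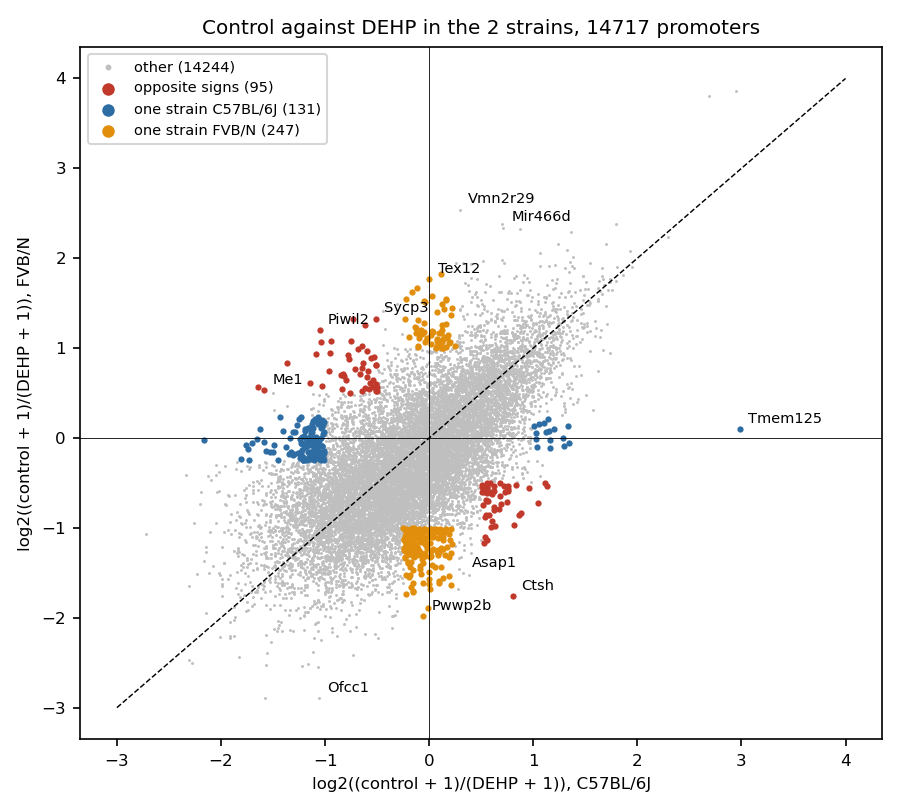
Each point is 1 of 14717 promoters, with the log2 ratio of control over DEHP in C57BL/6J on the x axis and in FVB/N on the y axis, coloured by class, and the dashed line marks equal ratios. Most points follow the line, Tmem125 lies far to the right with ratios of 2.98 (C57BL/6J) and 0.10 (FVB/N), and Piwil2 lies in the upper left part at -1.05 and 1.20.

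The bounds on single libraries were then compared with these classes. No promoter had libraries separated in opposite directions, that is, with every control library above every DEHP library in one strain and below in the other. In C57BL/6J 150 of the described promoters were separated and in FVB/N 340, with 15 in both strains and in the same direction. Of all 22480 promoters, 0.129% were separated in C57BL/6J with controls above and 1.02% with controls below, and in FVB/N 1.04% with controls above and 0.627% with controls below. Among the one-strain promoters, 7 of 131 were separated in C57BL/6J and 10 of 247 in FVB/N. The bound is wide, so libraries that did not overlap may be missed.

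Tmem125, which encodes a transmembrane protein, had the highest interaction, 2.88 with an SE of 0.57 and an adjusted p of 0.0815. Its probe (chromosome 4, 118543527 to 118545726, minus strand, 48 CG sites) meets Tmem125 exon sequence and that of no other gene. The mean was 14.7 ± 6.38 (SD) reads in C57BL/6J controls and 0.985 ± 1.31 in C57BL/6J DEHP, against 9.04 ± 2.97 in FVB/N controls and 8.37 ± 4.13 after DEHP. C57BL/6J DEHP had the lowest mean and the other 3 groups lay above 8 reads. Bisulfite pyrosequencing in the paper, at a CpG of this promoter, found lower methylation after DEHP in C57BL/6J that was not statistically significant. By the SD, C57BL/6J control libraries could lie between 3.17 and 26.2 reads and DEHP libraries between 0 and 3.49, so that the bounds touched by a small margin. The promoter was called with means as deposited, at an adjusted p of 0.00184, where the median interaction of all described promoters moved up to 0.64. It was also called with a pseudocount of 0.5, at 0.0409, whereas its adjusted p reached 0.611 where each group kept its own variance.

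Ctsh, the gene of the lysosomal protease cathepsin H, was second with an interaction of 2.57 (SE 0.61, adjusted p 0.247) and had opposite ratios in the strains. Its mean was 6.30 ± 2.00 reads in C57BL/6J controls and 3.17 ± 1.31 after DEHP, and 1.07 ± 1.55 in FVB/N controls and 6.03 ± 1.90 after DEHP. Only 66.7% of the sampled 51-base sequences of this probe occur once in the genome and 64.6% of it is repeat-masked. The other opposite promoters with the highest interactions were Prdm15, a zinc finger factor, at 1.78 (SE 0.59), Llgl2, a cell polarity gene, at 1.77 (SE 0.63), and Gm6408 at 1.72 (SE 0.61), where 27.8% of the sampled sequences were unique. In all 3, C57BL/6J controls and FVB/N DEHP held the higher means: 6.52 and 4.69 reads in Prdm15 against 3.28 in C57BL/6J DEHP and 1.90 in FVB/N controls. The Mir6388 probe also belonged to this class. It was listed at 0 in FVB/N controls and held 0.781 ± 0.781 reads in FVB/N DEHP, against 12.9 ± 6.82 and 6.57 ± 2.85 in C57BL/6J, and it carries 55 variants between the strains.

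Of the 10 highest interactions, 9 had their lowest mean in FVB/N controls, Tmem125 being the exception. FVB/N controls were lowest at 5832 of all 14717 described promoters. The ranking used these same means, so the count is not a separate result. Asap1, which encodes a GTPase-activating protein of Arf, had 4.52 ± 2.26 reads in FVB/N controls and 14.6 ± 1.56 after DEHP, against 13.4 ± 4.08 and 10.5 ± 3.17 in C57BL/6J controls and DEHP. Its FVB/N libraries were separated, since control libraries could reach 8.72 reads and DEHP libraries lay at 11.7 or above. The interaction was 1.83 (SE 0.48, adjusted p 0.532). Asap1 and Ctsh were called with means as deposited, each at an adjusted p of 0.0417. In that setting the median interaction of all described promoters was 0.64, and 2780 had a p under 0.05 above 0. Such calls therefore include a shift common to most promoters. The same order was found at 4930556C24Rik, a lincRNA, with 4.04 ± 2.85 reads in FVB/N controls and 13.5 ± 2.45 after DEHP. Pwwp2b, a chromatin protein gene with 124 CG sites in its probe, had 0.357 ± 0.713 reads in FVB/N controls and 4.35 ± 3.68 after DEHP beside 6.15 and 6.46 in C57BL/6J. The lincRNA 4930554C24Rik and the transcription elongation factor gene Tcea2 showed the same, at interactions of 1.88 and 1.51, and Tcea2 libraries were separated in FVB/N. Ofcc1 had more reads in DEHP in both strains, with log2 ratios of -1.06 (C57BL/6J) and -2.89 (FVB/N), and its FVB/N libraries were separated.

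Mir9-3, a hairpin gene of miR-9, a microRNA known from the nervous system, had an interaction of 1.97 (SE 0.64, adjusted p 0.868). Its probe (chromosome 7, 79503264 to 79505463, plus strand) contains the hairpin itself. The mature sequences, from RefSeq on GRCm38.p6, are printed with the seed, bases 2 to 8, in capitals. They name the RNA of this hairpin, and whether the probe holds its promoter was not tested.
mmu-miR-9-5p: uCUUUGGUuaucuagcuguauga
mmu-miR-9-3p: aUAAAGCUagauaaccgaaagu
The probe held 1.43 ± 2.02 reads in FVB/N controls and 6.81 ± 0.669 after DEHP, and the libraries were separated, at most 5.21 against at least 5.45 reads. In C57BL/6J it held 5.26 ± 1.85 reads in controls and 4.16 ± 2.95 in DEHP.

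**Figure D2:**
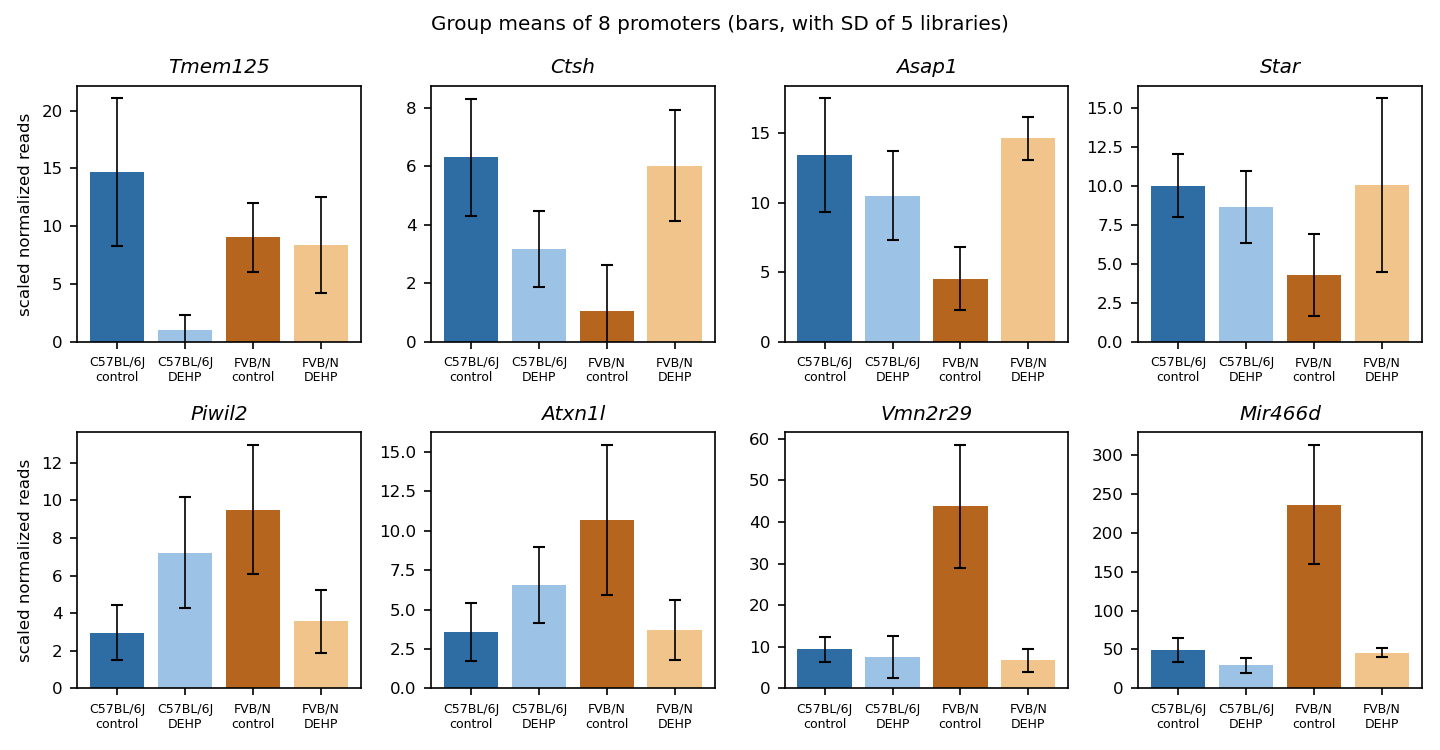
Bars are group means of scaled normalized reads at 8 promoters and error bars are the SD of 5 libraries, with the upper row holding promoters with an interaction above 0 and the lower row promoters below 0. Tmem125 is low in C57BL/6J DEHP, Asap1 and Ctsh are low in FVB/N controls, and the 4 promoters of the lower row are highest in FVB/N controls, with 43.8 reads at Vmn2r29 and 236 at Mir466d.

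Star, which encodes the protein that carries cholesterol into mitochondria for steroid synthesis, was at 10.01 ± 2.00 reads in C57BL/6J controls and 8.65 ± 2.30 in C57BL/6J DEHP, against 4.28 ± 2.62 in FVB/N controls and 10.04 ± 5.58 after DEHP. FVB/N controls were the lowest group. The interaction of 1.25 (SE 0.54) had a p of 0.0233 before and 0.969 after adjustment, and the bounds of the libraries overlapped in both strains.

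Of the 10 lowest interactions, 5 had their highest mean in FVB/N controls and 5 in C57BL/6J DEHP. These groups were highest at 2895 and 4554 of all 14717 described promoters, and a low interaction by itself selects for either. Piwil2 had the lowest value, -2.25 (SE 0.56, adjusted p 0.347). It encodes MILI, a PIWI protein that binds piRNAs in fetal male germ cells and takes part in transposon silencing. Its probe (chromosome 14, 70428895 to 70431094, minus strand, 40 CG sites) carries 0 variants between the strains. The mean was 2.97 ± 1.48 reads in C57BL/6J controls and 7.22 ± 2.95 in C57BL/6J DEHP, but 9.51 ± 3.45 in FVB/N controls and 3.57 ± 1.67 after DEHP. The ratios were therefore opposite, at -1.05 with an SE of 0.33 and 1.20 with an SE of 0.32. The bounds of control and DEHP libraries overlapped in both strains, at up to 5.72 and from 1.78 reads in C57BL/6J, and from 3.18 and up to 6.72 reads in FVB/N. The adjusted p stayed between 0.241 and 0.551 under the alternatives.

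The same cross of the groups was seen at Atxn1l, a transcriptional repressor gene, with 3.56 ± 1.85, 6.57 ± 2.41, 10.7 ± 4.76 and 3.68 ± 1.90 reads in controls and DEHP of C57BL/6J and then of FVB/N. Its interaction was -2.05 (SE 0.56), and 70.4% of its sampled sequences were unique. The probe of Rps4l, annotated as a transcribed processed pseudogene of a ribosomal protein, went from 1.04 ± 1.19 to 4.27 ± 1.75 reads in C57BL/6J and from 7.37 ± 0.713 to 3.68 ± 2.45 in FVB/N, at -2.21 (SE 0.61). Olfr1508, an olfactory receptor gene, reached -2.21 (SE 0.69) with 4.28 ± 5.35 reads in FVB/N controls, an SD above the mean. Opposite signs were also found at Grip1os2, an antisense gene, at Plce1, a phospholipase C, at Crocc, which encodes the ciliary rootlet protein rootletin, and at the lincRNA 2810429I04Rik, with interactions from -2.10 to -1.90. Of these, 2810429I04Rik had the largest strain difference, with 17.95 ± 4.99 reads in FVB/N controls and 1.56 ± 0.741 in C57BL/6J controls.

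Me1, the gene of the cytosolic malic enzyme that yields NADPH, differed from these in its order. Both control groups were low, at 1.93 ± 0.741 reads (C57BL/6J) and 1.90 ± 1.43 (FVB/N), and C57BL/6J DEHP stood apart at 7.77 ± 4.05 beside 1.004 ± 0.669 in FVB/N DEHP. The interaction was -2.12 (SE 0.61, adjusted p 0.599). High means in C57BL/6J DEHP with flat ratios in FVB/N were found at the lincRNA 4933406D12Rik, at Vmn1r40, a vomeronasal receptor, at Krtap17-1, a hair keratin-associated protein, and at Aox4, an aldehyde oxidase. At 4933406D12Rik the mean was 0.519 ± 0.815 reads in C57BL/6J controls and 5.80 ± 1.64 in C57BL/6J DEHP, and the libraries were separated. In FVB/N the same probe held 4.28 ± 5.23 and 4.35 ± 2.79 reads.

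Other promoters had their larger ratio in FVB/N, with more reads in controls. Vmn2r29, a vomeronasal receptor of the V2R family, held 43.8 ± 14.9 reads in FVB/N controls and 6.69 ± 2.68 after DEHP, against 9.34 ± 2.97 and 7.44 ± 5.03 in C57BL/6J. Its FVB/N libraries were separated, at 17.0 reads or more against 11.6 or fewer. The interaction was -2.25 (SE 0.49, adjusted p 0.108), and 73.1% of its sampled sequences were unique. Mir466d had 236 ± 77.0 reads in FVB/N controls and 45.9 ± 5.80 after DEHP, also separated, and 48.9 ± 15.4 and 29.5 ± 10.1 in C57BL/6J, at -1.63 (SE 0.35, adjusted p 0.108). Both were called on the scale of reads, as a difference of differences of -35.2 and -171 reads, at adjusted p of 0.00489 and 0.00117. On that scale equal ratios in both strains also give a difference where their control levels are unlike. Tex12, a synaptonemal complex gene, held 8.08 ± 3.21 reads in FVB/N controls, 1.67 ± 0.558 in FVB/N DEHP and 2.30 in both C57BL/6J groups, at -1.76 (SE 0.60). Paqr4 was at 9.27 ± 5.71 reads in FVB/N controls and 1.90 ± 1.34 after DEHP. Its probe shares 1097 bases with that of 9530082P21Rik, so both hold partly the same reads.

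Igf2r, the imprinted receptor gene, was at 3.86 ± 2.74 reads in C57BL/6J controls and 7.22 ± 3.28 in C57BL/6J DEHP, and at 10.3 ± 6.18 and 8.59 ± 1.45 in FVB/N. Its interaction was -1.002 (SE 0.57, adjusted p 0.9999). Piwil4, the PIWI protein of fetal germ cell nuclei, was at -0.68 (SE 0.59, adjusted p 0.9999), with 3.48 ± 1.48 reads in C57BL/6J controls and 6.68 ± 1.86 after DEHP, and 5.35 ± 3.69 in FVB/N controls and 5.80 ± 3.46 after DEHP. Neither value differed from 0 beyond its error at an adjusted p under 0.05. Rabl2 had an average under 3 and is given with the values outside the comparisons.

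Most promoters of a germline list lay below 0. A list of 15 such promoters, known to be methylated in somatic tissues, was complete among the described promoters. The interaction was below 0 in 14 of 15, against 44.2% of all described promoters. The median was -1.04, beside 0.07. It was -0.5 or less in 11 of 15, against 13.3%. At a p under 0.05 there were 4 below 0 and 0 above 0, against 1.60% and 1.69% of all described promoters. The exception above 0 was Tex101, a germ cell surface protein gene, at 0.39 (SE 0.53). No promoter of the list was called after adjustment. The list was chosen with earlier results of these data known, so its counts describe these data and are not a test. With means as deposited, where the median of all described promoters moved up to 0.64, the median of the list was -0.45 and 11 of 15 were below 0. With a minimum average of 10 reads, 3 of the 15 were left, at a median of -0.12 beside 0.11 for all promoters above that minimum.

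FVB/N controls held the highest of the 4 means at 13 of the 15 germline promoters, against 19.7% of all described promoters. C57BL/6J controls held the lowest at 9, against 26.3%. Both orders lower the interaction, so these counts are not separate from those below 0. FVB/N controls, the most variable group, were also highest at 36.8% of 821 microRNA and 29.9% of 261 spermatogenesis promoters. At 430 olfactory receptor promoters this share was 4.42%. The median over the list was 4.45 reads in C57BL/6J controls and 7.11 after DEHP, and 9.51 in FVB/N controls and 7.03 after DEHP. Over all described promoters these medians were 7.04, 8.43, 6.42 and 8.37, so the listed probes were not free of reads in sperm. Sycp3, of the synaptonemal complex, held 2.15 ± 1.41, 3.50 ± 1.09, 5.71 ± 2.02 and 1.67 ± 0.558 reads in these groups and had opposite ratios, at -1.84 (SE 0.58, p 0.00259). Dazl, an RNA-binding protein of germ cells, held 5.56 ± 3.93, 4.16 ± 1.86, 12.6 ± 3.92 and 3.12 ± 1.90 reads, at -1.38 (SE 0.58, p 0.0215). Rpl10l, a retrotransposed ribosomal protein gene used in meiosis, held 2.97 ± 1.63, 3.17 ± 2.30, 8.92 ± 0.713 and 3.46 ± 1.79 reads, at -1.23 (SE 0.59, p 0.0419). Its FVB/N libraries were separated. Mov10l1, the helicase that starts piRNA production, was at -1.04 (SE 0.51, p 0.0482). Dpep3, Brdt, Slc25a31 and Sycp1 lay between -1.12 and -1.10, with p from 0.0532 to 0.0823.

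**Figure D3:**
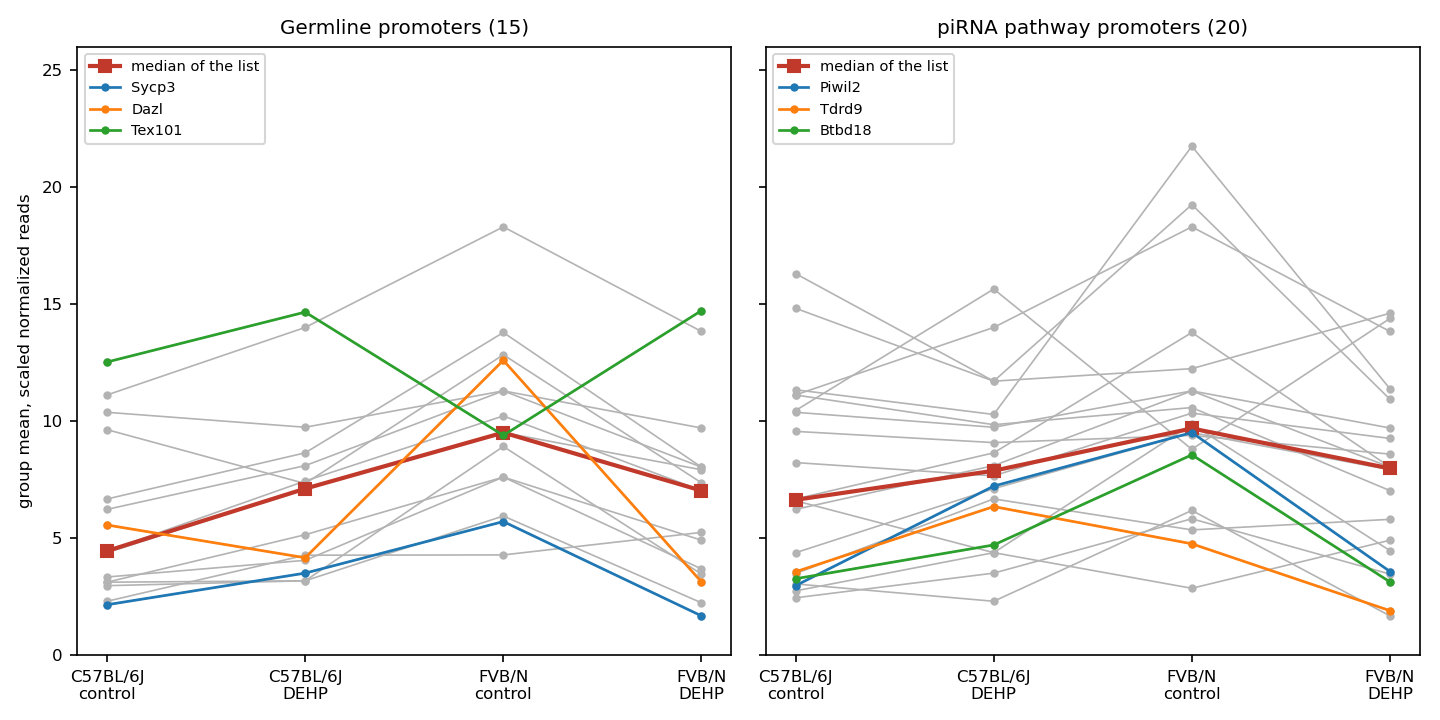
Grey lines join the 4 group means (scaled normalized reads) of each germline promoter on the left and of each piRNA pathway promoter on the right, coloured lines mark named promoters, and red squares are the medians of the lists. On the left the median goes from 4.45 in C57BL/6J controls to a peak of 9.51 in FVB/N controls, and Tex101 runs against it.

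Genes of the piRNA pathway, which makes and uses the small RNAs bound by PIWI proteins, leaned the same way. Of 26 listed genes 24 were in the table and 20 among the described promoters. Their median interaction was -0.68, and 17 of 20 were below 0, against 44.2% of all described promoters. At a p under 0.05 there were 4 below 0 and 0 above 0, against 1.60% and 1.69%. The 4 were Piwil2, Tdrd9, Btbd18 and Mov10l1. This list too was chosen with earlier results of these data known, and the paper reported Piwil2 from these same libraries. Tdrd9, a helicase, was at -1.68 (SE 0.59, p 0.00675). Btbd18, a regulator of piRNA precursor transcription, was at -1.63 (SE 0.57, p 0.00605). Tdrd9 held 3.56 ± 1.63 reads in C57BL/6J controls and 6.35 ± 1.86 in C57BL/6J DEHP, and 4.76 ± 2.73 and 1.90 ± 1.34 in FVB/N. Btbd18 held 3.26 ± 1.48 reads in C57BL/6J controls and 4.71 ± 2.74 after DEHP, and its FVB/N means were 8.56 ± 2.97 and 3.12 ± 1.12. Tdrd7 was the highest of the list at 0.68 (SE 0.49). FVB/N controls held the highest mean at 13 of 20, against 19.7% of all described promoters, again not separate from the counts below 0. The lists share Mael, Asz1, Mov10l1, Tdrd1 and Ddx4, so they are not separate counts. With means as deposited, the piRNA median was -0.11 and 11 of 20 were below 0. With a minimum average of 10 reads, 6 of the 20 were left, at a median of -0.28 beside 0.11, and 4 of them were below 0.

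Germline promoters are methylated in somatic cells, so DNA of other cells in a sperm sample would add reads at them, and it would also add reads at promoters methylated on the maternal allele, which are near free of methylation in sperm. By the study's methods, sperm was inspected under phase contrast and any preparation with somatic cells was not used. The summed level of the 15 germline promoters was 87.9 reads in C57BL/6J controls and 105 after DEHP, and 149 in FVB/N controls and 101 after DEHP, and 0 of them was at 0 in any group. For the 12 maternally methylated promoters the sums were 48.4, 54.0, 58.1 and 63.7 reads, with FVB/N DEHP the highest and 0 at 0. Of these 12, 7 were among the described promoters, with a median interaction of 0.13, and 0 had a p under 0.05. The highest mean lay in FVB/N DEHP at 7 of the 12, in FVB/N controls at 3 and in C57BL/6J DEHP at 2. Snrpn, with an average under 3, held 0.371, 4.38, 1.31 and 4.91 reads in the 4 groups. Nnat, the most read of the 12, held 19.6, 10.4, 21.5 and 16.3, beside medians of 7.04, 8.43, 6.42 and 8.37 over the described promoters. Whether methylated DNA beside these promoters, within the 2200 bp probes, gave such reads was not tested. The 4 listed promoters of genes imprinted through methylation of the paternal copy summed to 41.6, 36.9, 39.2 and 30.7 reads. Whether their probes reach the stretch that is methylated in sperm was not tested. H19 held 18.8, 19.7, 22.4 and 19.5 reads, whereas Meg3 held 19.1, 10.1, 8.32 and 5.80. Zdbf2, at 1.93, 3.83, 4.16 and 2.45 reads, and Rasgrf1, at 1.78, 3.28, 4.40 and 2.90, were highest in FVB/N controls, as most of the germline list was. The part of other cells in the germline result was not tested.

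A short sequence was counted at the germline promoters. The E-box CACGTG, which reads the same on both strands, was found in the 250 bases before the start of 10 of the 15 germline promoters (66.7%) and of 9 of the 20 piRNA promoters (45.0%), against 6.63% of all 22480 promoters and 6.50% of the described ones. In the windows printed above it occurs 2 times in Sycp3, 1 time in Mov10l1 and 2 times in Tdrd9, and 0 times in Dazl. Over all described promoters, the 957 with this motif had a median interaction of 0.02 and the 13760 without it 0.08. The motif TCCCGC, an E2F6-type motif searched on both strands, was found in 5 of the 15 germline promoters (33.3%) and 3 of the 20 piRNA promoters (15%), against 21.4% of all promoters and 19.2% of the described ones.

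Other lists showed smaller medians. Their counts at a p under 0.05 stand beside 1.69% of all described promoters above 0 and 1.60% below 0. Over 18 steroid synthesis promoters the median interaction was 0.11, and Star was the 1 promoter with a p under 0.05. Cyp17a1, the enzyme of androgen synthesis, was at 0.88 (SE 0.55, p 0.117). Over 11 promoters of DNA methylation genes the median was 0.06, and Tet1, an enzyme that oxidizes methylcytosine, was the 1 with a p under 0.05, at -1.13 (SE 0.48, p 0.0219). Tet1 held 14.7 ± 6.01 reads in C57BL/6J controls and 8.86 ± 2.63 after DEHP, and 28.1 ± 10.7 in FVB/N controls and 7.36 ± 2.90 after DEHP, with FVB/N controls again the highest group. Over 14 promoters of PPAR, xenobiotic and steroid receptors and their targets the median was 0.14 and 0 had a p under 0.05. The highest of them were Cyp2b10, a xenobiotic-metabolizing cytochrome, at 0.83 (SE 0.57) and Lpl, the lipoprotein lipase gene, at 0.75 (SE 0.56).

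Among all described promoters, a p under 0.05 was found above 0 at 1.69% and below 0 at 1.60%. Of 67 vomeronasal receptor promoters, 6 had a p under 0.05 below 0 and 0 above 0, at a median of -0.17. Of 430 olfactory receptor promoters, 8 lay on each side, at a median of 0.05. Of 821 microRNA promoters, 16 lay above 0 and 11 below, at a median of 0.08. The ratios of control over DEHP themselves were far from 0 in the receptor families, with C57BL/6J and FVB/N medians of -0.92 and -0.88 for vomeronasal receptors and of -0.86 and -0.87 for olfactory receptors. In microRNAs the medians were 0.23 and 0.12. Of 35 trace amine and taste receptor promoters, 0 had a p under 0.05, at a median of 0.13. With means as deposited the medians were 0.35 for vomeronasal receptors and 0.68 for microRNAs, beside 0.64 for all described promoters.

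Of the annotations deposited with the table, spermatogenesis covered 261 of the described promoters, with a median of -0.06. Of these, 3 had a p under 0.05 above 0 and 11 below, against 1.69% and 1.60% of all described promoters. For 698 reproductive process promoters the median was 0.02, with 11 above and 21 below, for 98 sperm part promoters -0.02, with 3 and 4, for 547 sperm proteome promoters 0.08, with 9 and 12, and for 89 imprinted promoters -0.02, with 2 and 3.

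**Figure D4:**
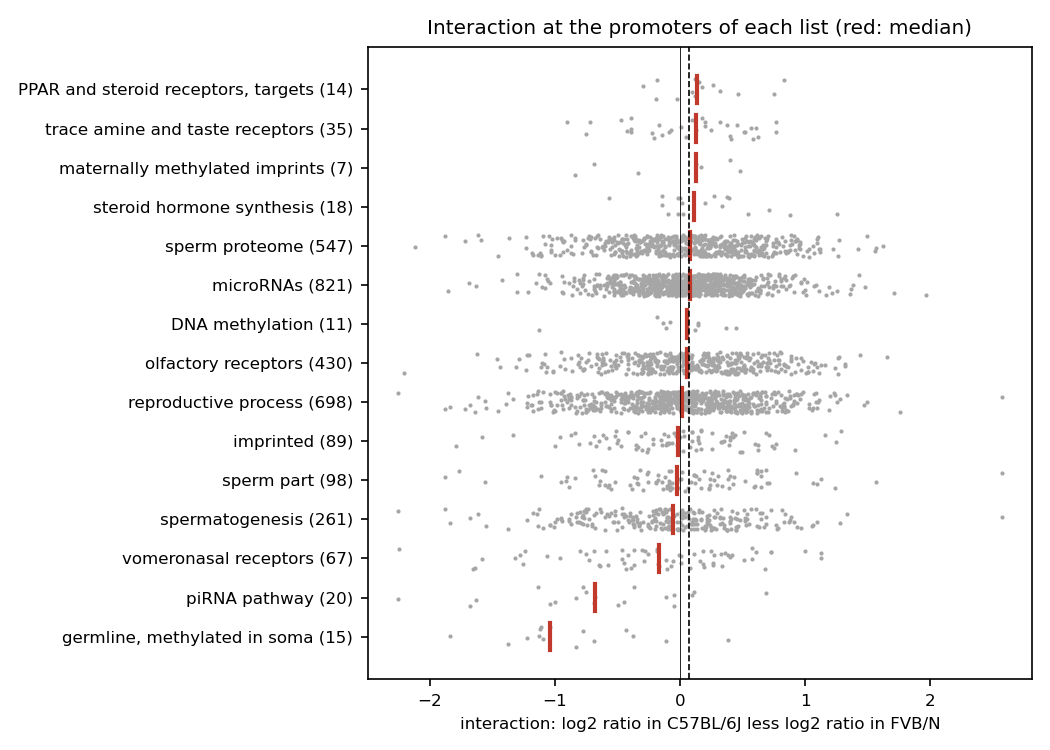
Grey points are the interactions (log2) of the described promoters of each list, spread vertically at random, with the number of promoters in brackets, and red bars are medians. The dashed line is the median of all 14717 promoters, 0.07, and the bars of the germline and piRNA lists lie at -1.04 and -0.68 while those of the other lists lie between -0.17 and 0.14.

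The spread of the interaction was smaller at promoters with more reads. Its SD was 0.62 at averages from 3 to under 5 reads, 0.53 from 5 to under 10, 0.44 from 10 to under 20 and 0.36 at 20 or more, and the median SE went from 0.63 to 0.43 over the same ranges. By CG sites, the median stayed between -0.01 and 0.13 in all bins, with an SD from 0.48 at 21 to 40 sites to 0.60 at 1 to 10. Rank correlations of the size of the interaction, without its sign, over the 14717 promoters, which share libraries, were -0.17 with level, 0.02 with CG sites and 0.03 with the number of variants between the strains. With the sign kept they were 0.11, -0.05 and -0.0005. The share with a p under 0.05 was 2.87% at promoters with 0 variants and 4.21% at those with 20 or more. It was 11.7% at the 77 promoters where under 50% of sampled sequences were unique. By chromosome the median lay between 0.04 and 0.10, with no chromosome apart. Probes of 1673 described promoters share bases with that of another described promoter and are not independent.

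**Figure D5:**
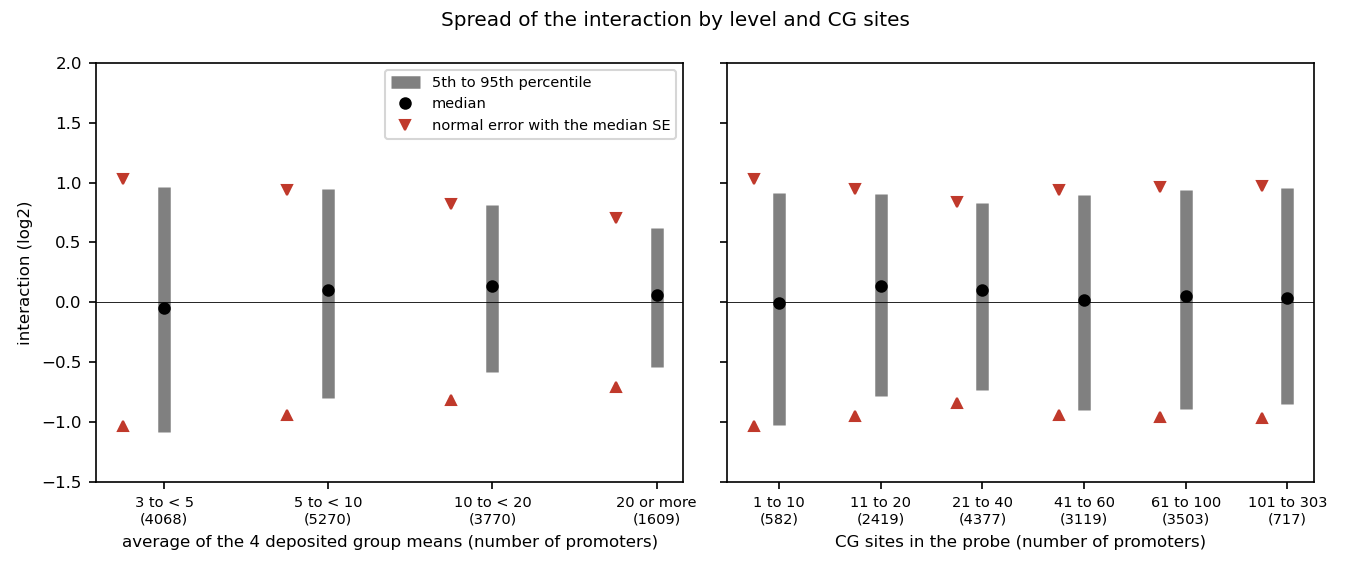
Grey bars span the 5th to the 95th percentile of the interaction (log2) by average level on the left and by CG sites on the right, black points are medians, and red triangles mark the range that a normal error with the median SE of the bin would fill between the same percentiles. The bars shorten with level and end near the triangles or inside them. At 20 reads or more the bar runs from -0.54 to 0.62, inside the triangles at both ends.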

How the data were processed

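MBD-sequencing reads were aligned by the authors onto mm10 with Bowtie (version 0.12.7 in the submitters' notes), counted over promoter probes and normalized with edgeR. The signal used here is the group mean and SD of normalized reads, deposited with 1 decimal. Groups follow the labels. The deposited fold changes, p-values and FDR of the authors' own comparisons were not used.

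Means and SDs were scaled to a common sum (factors 0.741, 1.09, 1.19 and 1.12 for controls and DEHP of C57BL/6J and then of FVB/N). A pseudocount of 1 was added before log2, so ratios of low promoters are understated. The SE of the interaction came from the 4 SDs by the delta method, with 16 residual degrees of freedom, and variances were moderated with a trend on level by limma 3.58.1 (R 4.3.3) over all 22480 promoters before Benjamini-Hochberg adjustment. This stands in for the count test that single libraries would allow, and was tested on simulated data. There 5.58% of unchanged promoters had a p under 0.05, and 6 were called. In the data 1.69% of described promoters passed this limit above 0 and 1.60% below 0, and 0 were called. Simulated promoters thus passed more often, and their rates may not carry over to the data. Seeded interactions of log2 size 1, 2, 3 and 4, set before 1 was added to the means, were called at 4.0%, 46.9%, 79.6% and 100%. The separation bound is the farthest 1 of 5 values can lie from its mean, 1.79 SD, widened by a rounding step of 0.05.

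Named promoters are the 10 highest and 10 lowest interactions, the 5 largest over their SE in each direction, the 5 largest of each opposite class and of each one-strain class, and those the paper names, of which 1 is not reported here. The described promoters and the lists were chosen with earlier results of these data known. Sequence, 51-base uniqueness (sampled every 20 bp) and exons came from GRCm38.p6 and its GENCODE annotation, and 93.2% of probes held the deposited number of CG sites there. Promoter windows matched the RefSeq table for the 6 printed, and Mir466d has no entry in the RefSeq microRNA table used. Scripts ran under Python 3.11.15 (numpy 2.4.6, scipy 1.17.1, pandas 2.3.3, numba 0.67.0, matplotlib 3.10.9, statsmodels 0.14.6). Alternatives were other scalings, pseudocounts, minimum averages, class thresholds, variance models, the scale of reads and correction for CG sites.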

Additional observations from a re-analysis of the deposited data

How the results depend on the processing

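No paired analysis was possible because only group means and SDs were used, which carry no replicate numbers, and for the same reason no library could be left out. None of the 34 named promoters turned its direction under any alternative. With means as deposited, the median interaction moved to 0.64, 3 promoters were called above 0 (Tmem125, Ctsh and Asap1), 2780 had a p under 0.05 above 0 and 31 below, opposite signs were found at 697 and 8, and one-strain ratios at 555 for C57BL/6J and 725 for FVB/N. Scaling to a common median gave 86 opposite promoters with more control reads in C57BL/6J, and 207 for C57BL/6J alone. A pseudocount of 0.5 called 1 promoter above 0, and a pseudocount of 3 left 10 and 15 opposite and 33 and 79 one-strain promoters. Without a minimum, 740 promoters had a p under 0.05 below 0, with 80 and 279 opposite and 486 and 423 one-strain. With a minimum of 10, 70 lay above and 59 below, with 6 and 3 opposite and 6 and 50 one-strain. On the scale of reads 3 promoters were called below 0, Vmn2r29, Mir466d and 3110070M22Rik. A threshold of 1 in each strain left 0 and 2 opposite promoters, and a limit of 0.5 for the other strain gave 357 and 603 one-strain promoters. The median of the germline list less that of all described promoters was -1.11, and -0.84 with a pseudocount of 3 and -0.23 with a minimum of 10. For the piRNA list it was -0.76, and -0.61, -0.57 and -0.39 with a pseudocount of 3, no minimum and a minimum of 10. The cause of these shifts was not tested, apart from the number of promoters that a minimum admits. Among promoters with at least 90% unique sequences, a limit chosen after seeing the data, 0 were called.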

Other observations

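The 1609 described promoters with averages of 20 reads or more had a median interaction of 0.06. Among them 3110070M22Rik, named after its value was seen, held 174 ± 59.9 reads in C57BL/6J controls and 26.2 ± 11.5 after DEHP, and 734 ± 116 in FVB/N controls and 51.5 ± 8.48 after DEHP, at -1.12 (SE 0.31, adjusted p 0.534), and 61.1% of its sampled sequences were unique. On the scale of reads, where unlike control levels alone can give a difference, its difference of differences was -535, at an adjusted p of 5.95e-08. Sfi1, also named after its value was seen, a centrosome gene, held 1462 ± 521, 188 ± 47.6, 1597 ± 251 and 109 ± 19.9 reads in the same order, at -0.91 (SE 0.26, adjusted p 0.534).

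The one-strain promoters with separated libraries, named after their values were seen, included in FVB/N with more reads in controls Sec1, Slc25a33, Rpl10l, Gm6568, Abca4 and Maea, and with more reads in DEHP Rbbp5, Tcea2, 1700026L06Rik and Gm20319. Abca4, the transporter of photoreceptor cells, held 24.6 reads in FVB/N controls and 11.7 after DEHP, against 14.6 and 15.9 in C57BL/6J. In C57BL/6J they were 4933406D12Rik, Aldh3a2, Scgb2b24, Gm7788, 2700070H01Rik, Defb42 and Scgb2b26, all with more reads in DEHP. 2700070H01Rik and Defb42 hold equal means and count the same reads.

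The probes of 2010107E04Rik and Tdrd9 lie next to each other on chromosome 12, from 111966778 to 111968977 and from 111969559 to 111971758, on opposite strands, and their interactions were 1.84 (SE 0.63) and -1.68 (SE 0.59). 2010107E04Rik held 4.82 reads in C57BL/6J controls and 4.05 after DEHP, and 0.832 in FVB/N controls and 4.69 after DEHP.

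Outside the described promoters, Rabl2 held 1.26, 0.876, 1.90 and 1.45 reads in controls and DEHP of C57BL/6J and then of FVB/N.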
